A study of Mus musculus with 16 samples.

Results

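Skeletal muscle was compared with 7 other tissues of the mouse in short-read RNA-Seq data. It was represented by 2 of the 16 libraries, 1 from fed and 1 from fasting animals, and the other 14 came from heart, liver, kidney, lung, spleen and both white and brown adipose tissue under the same treatments. The mice were male C57BL/6 animals, 12 weeks old when purchased. One group was fed freely and the other was fasted for 24 h. Each library is an equal mix from the 3 animals of a treatment, so there is 1 library per tissue and treatment and no measure of the spread between animals. The labels say muscle and do not name which muscle was taken. The question addressed was which genes were enriched in, or missing from, muscle under both treatments. Fed and fasting muscle are given side by side and were not compared with each other.

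The 2 muscle libraries held 24076345 and 30937172 counts assigned to genes (fed and fasting, in this order throughout), within a range of 14245178 to 36069968 over the 16 libraries. The 10 most abundant genes took 37% and 37% of the counts in muscle, against 7.78% in fed spleen. Libraries of other tissues held muscle genes at low levels. Over the 33 muscle-enriched genes (defined below) with at least 500 CPM (counts per 1000000 counts of the library) in muscle, the median level in liver was 0.117% and 0.115% of that in muscle. It was 0.148% and 0.167% in white adipose, 0.00699% and 0.00505% in kidney, and 2.12% and 0.981% in brown adipose. In return, 85 abundant liver-enriched genes stood in the muscle libraries at a median of 0.111% and 0.0908% of their liver level. What brought these traces into the libraries was not tested. In bulk tissue, fewer cells of a type and less RNA per cell cannot be told apart.

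Skeletal muscle is built of long multinucleate fibres packed with sarcomeres, in which myosin thick filaments pull on actin thin filaments anchored in the Z-disc, while titin spans from Z-disc to the centre of the sarcomere. An action potential reaches the voltage sensor in the T-tubule, the ryanodine receptor then releases calcium from the sarcoplasmic reticulum, and calcium frees the thin filament through troponin. Fast fibres rely on glycogen, glycolysis and phosphocreatine, slow fibres and the heart more on oxidation, and many of the proteins concerned come as separate fast skeletal and slow or cardiac genes.

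A model with tissue and treatment as terms was fitted to all 16 libraries (edgeR's quasi-likelihood test), and muscle was contrasted with each of the 7 tissues. The fed and the fasting library of a tissue thus served as its 2 replicates, and since every tissue was taken from the same animals, p-values measure only the spread between these libraries. A gene was called highest in muscle where all 7 contrasts had muscle higher at a Benjamini-Hochberg adjusted p under 0.05. Of 23580 genes tested, 1345 were highest in muscle by this rule (5.7% of all genes tested) and 593 were lowest (2.51%). In the contrast with heart alone, 3558 genes were higher (15.1%) and 3860 lower (16.4%) in muscle. The scaling had a large part in these totals. The TMM factors of muscle were 0.554 and 0.524, and those of spleen 1.53 and 1.51. The median log2 difference over all genes then lay between -0.32 and 0.01 in the 7 contrasts, but between -1.71 and -0.17 when libraries were scaled by their totals alone, and the call then fell on 480 genes as highest and 3338 as lowest, with 1411 genes higher than in heart. All 480 were among the 1345, and all 593 were among the 3338. Of the 1345 genes, 621 also had more CPM in both muscle libraries than in any of the other 14.

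Muscle-enriched genes were taken as a narrower class by size. They were highest in muscle, reached at least 10 CPM in both muscle libraries, and had at least 4 times the CPM of the highest other library of the same treatment, under both treatments. There were 130 such genes (0.551% of genes tested), and they held 27.3% and 27% of all counts of the muscle libraries. The ratio to the highest other library, taken as the smaller of the 2 treatments, had a median of 16.2 and ran from 4 (Klhl41) to 134 (Lbx1), with Ksr1 just outside the class at 3.96. Protein-coding genes made up 119 of the 130. Under the same rule liver had 347 enriched genes, spleen 590, kidney 315, lung 217, heart 115, white adipose 58 and brown adipose 36. The highest other library was one of brown adipose for 55 of the 130 genes, of these 53 in the fed one, and one of heart for 39. Muscle stood above brown adipose by a median ratio of 43.3 in fed and 82.9 in fasting animals, and above heart by 68.5 and 56.9.

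**Figure D1:**
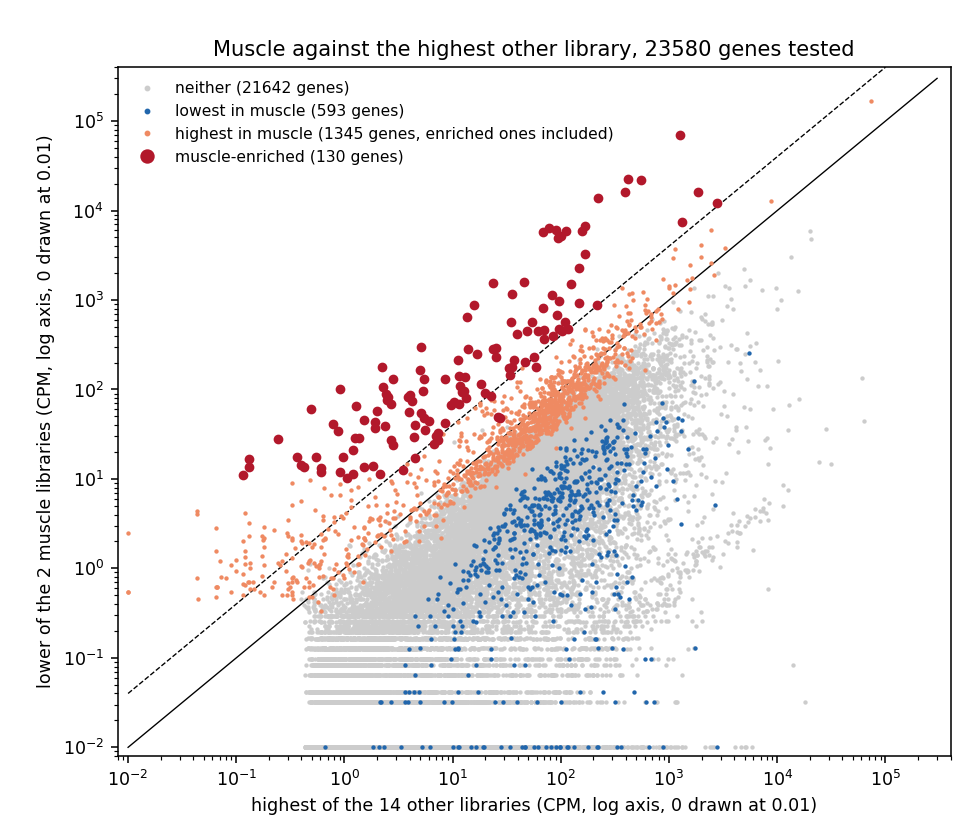
Each point is 1 of the 23580 genes tested, with the highest of the 14 other libraries on the horizontal axis and the lower of the 2 muscle libraries on the vertical axis, both in CPM on log axes with 0 drawn at 0.01. The solid line marks equal values and the dashed line a ratio of 4. The 130 muscle-enriched genes (dark red) lie above the solid line, the 593 genes lowest in muscle (blue) lie below the solid line, and part of the 1345 genes highest in muscle (orange) lie below it too, since their call rests on TMM-scaled values.

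The muscle label was checked first on its markers. Myh4, the fast IIb myosin heavy chain, stood at 69875 and 73319 CPM in muscle, and at 0.194, 83.6 and 1272 CPM as the lowest, median and highest of the other 14 libraries. Acta1, skeletal α-actin, stood at 24269 and 22382 CPM in muscle and at 0.252, 24 and 415 CPM in the others. Both genes were far above every other library in both treatments, and the highest other library was fed brown adipose for each. The tissue closest to muscle in the fit was brown adipose for Myh4, with a log2 difference of 7.17 ± 0.51 (SE, adjusted p = 1.28e-06), and heart for Acta1, with 6.94 ± 0.66 (SE, adjusted p = 2.09e-05).

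The 10 enriched genes with the most CPM were Myh4, Acta1, Neb, Ckm, Atp2a1, Tnnt3, Aldoa, Myl1, Pygm and Actn3. Neb, nebulin, the ruler protein along the thin filament, had 22165 and 24242 CPM in muscle and no more than 554 CPM in the fed brown adipose library. Ckm, muscle creatine kinase, had 17217 and 15909.7 CPM against 1833 CPM in the fed heart library. Atp2a1, the fast sarcoplasmic calcium pump, had 15929.7 and 17535 CPM against 391 CPM in the fed brown adipose library. Each of these genes was at least 4.39 times higher in muscle than in any other library of the same treatment, the smallest ratio being that of Aldoa, aldolase A, and the largest 82.3, that of Actn3, the fast-fibre α-actinin. Titin, Ttn, alone held 17.2% and 16.9% of the counts of muscle but was not enriched by the size rule, because heart also had much of it, up to 73986 CPM in the fed heart library.

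The genes with the largest ratios were mostly of moderate abundance. Lbx1, a homeobox factor of migrating muscle precursors, had 44.4 and 28.2 CPM in muscle and at most 0.241 CPM in the fed brown adipose library, which were 4 counts. Mstn, myostatin, the secreted inhibitor of muscle growth, had 101 and 126 CPM in muscle, and 0, 0.169 and 0.903 CPM as lowest, median and highest elsewhere. Mettl21c, a lysine methyltransferase of muscle, had 100.3 and 61.2 CPM against at most 0.491 CPM in the fasting brown adipose library. Mybph and Mybpc2, a relative and the fast form of myosin-binding protein C, had 71.6 and 40.6 CPM and 5805 and 6326 CPM, against at most 0.783 and 68.9 CPM, both in fed brown adipose. Odf3l2 had 16.6 and 37.9 CPM, with no more than 2 counts in any other library. Actn3, Tmem233, Cacng1 and Ampd1 completed these 10, with ratios of 82.3, 80, 79.7 and 75.9. None of these 10 genes overlapped between muscle and the other libraries, as their class requires.

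**Figure D2:**
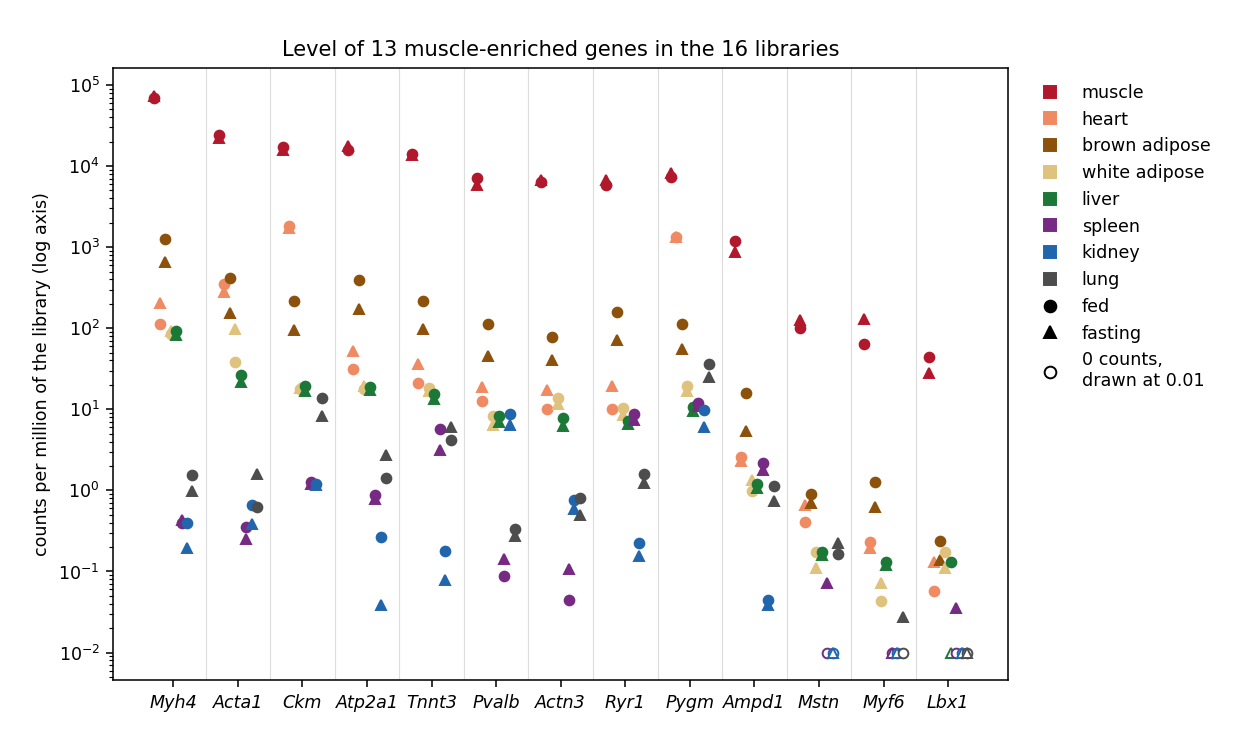
Levels of 13 muscle-enriched genes in the 16 libraries, in CPM on a log axis, with colours for tissues, circles for fed and triangles for fasting animals, and open symbols at 0.01 for 0 counts. The 2 muscle libraries lie above all others for every gene drawn, and brown adipose or heart comes next for most of them.

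Of the 130 enriched genes, 15 lay within 100 kb of another in 4 places of the genome (GRCm38). The spacing of other genes was not compared, so this is a description of position only. The largest group was at chr11:67112461-67308634, with Myh2, Myh1, Myh4 and Myh8, the skeletal myosin heavy chains, the antisense gene Myhas and 2310065F04Rik. Next came chr7:142441808-142578143, with Tnni2 and Tnnt3, the fast troponins I and T, Prr33, Nctc1 and H19, the imprinted long noncoding RNA. The other pairs were Dupd1 with Dusp13, and Jph1 with Gdap1. Reads of the near-identical myosin genes may have been split between them, and the labels call the libraries strand-specific without saying whether the counting used strand, so Myhas cannot be told apart from the genes on the opposite strand.

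Promoter sequences from RefSeq (build GRCm38.p6), from 250 bases before to 50 bases after the start of a gene, were matched by symbol to 94 of the 130 genes, with 110 promoters in all. The letters CAGCTG, an E-box that myogenic factors such as MyoD can bind and that reads alike on both strands, stood in 37 of them (33.6%), against 16.3% of 32851 promoters of all genes, 18.1% of those of the wider class of genes highest in muscle and 15.2% of those of genes lowest in muscle. A MEF2 box on either strand stood in 10% against 3.19% of all, a CArG box, the site of serum response factor, in 3.64% against 1.63%, and TATAAA on either strand in 17.3% against 13.6%. In genes highest in muscle the MEF2, CArG and TATAAA shares were 3.49%, 2.03% and 8.69%, the last below that of all promoters. The median GC content was 58.3% in the promoters of enriched genes and 52.7% in all, and its part in the shares was not tested. A MEF2 box can overlap TATAAA. These shares are a description of the letters in these windows, in which 57 of the 110 promoters held none of the 4 motifs. The promoters of the marker genes Myh4 (chr11:67237562-67237861, + strand) and Acta1 (chr8:123894726-123895025, - strand), of Myh1 (chr11:67199852-67200151, + strand), a neighbour of Myh4, and of the calcium pump gene Atp2a1 (chr7:126463024-126463323, - strand) are shown 5′ to 3′ with the 4 motifs in capitals.
Myh4: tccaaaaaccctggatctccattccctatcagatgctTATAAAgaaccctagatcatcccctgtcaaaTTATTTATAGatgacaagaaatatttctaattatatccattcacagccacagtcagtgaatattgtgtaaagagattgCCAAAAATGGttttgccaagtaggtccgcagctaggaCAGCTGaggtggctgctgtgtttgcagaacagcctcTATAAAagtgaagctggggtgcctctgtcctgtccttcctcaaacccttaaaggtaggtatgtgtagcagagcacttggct
Myh1: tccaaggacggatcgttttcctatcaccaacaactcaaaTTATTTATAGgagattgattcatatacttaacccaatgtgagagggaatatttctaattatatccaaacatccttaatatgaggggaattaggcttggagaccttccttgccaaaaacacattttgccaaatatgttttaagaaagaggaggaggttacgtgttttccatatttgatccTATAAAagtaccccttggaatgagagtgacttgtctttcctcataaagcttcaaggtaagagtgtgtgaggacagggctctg
Acta1: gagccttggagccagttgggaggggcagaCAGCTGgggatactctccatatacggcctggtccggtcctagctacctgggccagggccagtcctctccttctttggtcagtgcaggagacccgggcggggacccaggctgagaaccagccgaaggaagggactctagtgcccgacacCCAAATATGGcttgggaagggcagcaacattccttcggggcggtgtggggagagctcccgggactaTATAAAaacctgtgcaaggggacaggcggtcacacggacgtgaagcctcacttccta
Atp2a1: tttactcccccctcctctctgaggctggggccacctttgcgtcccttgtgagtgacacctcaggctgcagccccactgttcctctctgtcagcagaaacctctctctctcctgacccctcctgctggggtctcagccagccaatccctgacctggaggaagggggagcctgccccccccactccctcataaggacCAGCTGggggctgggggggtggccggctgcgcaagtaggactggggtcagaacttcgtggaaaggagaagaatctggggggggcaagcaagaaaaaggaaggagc
Myh4 held the E-box at position -67 from the start, 3 TATAAA, among them 1 at -31, and a CArG box at -104, where position -1 is the base before the start and positions mark the leftmost base of a match. Both Myh4 and Myh1 held a MEF2 box, at -182 and -211, the one in Myh4 and the one in Myh1 each overlapping a TATAAA. Atp2a1 held the E-box alone.

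Members of 10 lists of muscle genes were then counted. Of 180 listed genes 177 passed the filter on low counts, 111 of these were highest in muscle, against 5.7% of all genes, and none was lowest. The median of the smallest log2 difference to the other 7 tissues was 1.80 over the 177 genes and -1.69 over all genes tested. With library totals alone, 97 members kept a call as highest. Excitation-contraction coupling and glycogen and glycolysis had 18 of 23 and 18 of 23 members called, beside 15 of 19 of the transcription factors. The dystrophin complex (5 of 17) and the phosphocreatine, purine and oxygen list (5 of 14) had the smallest shares among lists of over 10 members.

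**Figure D3:**
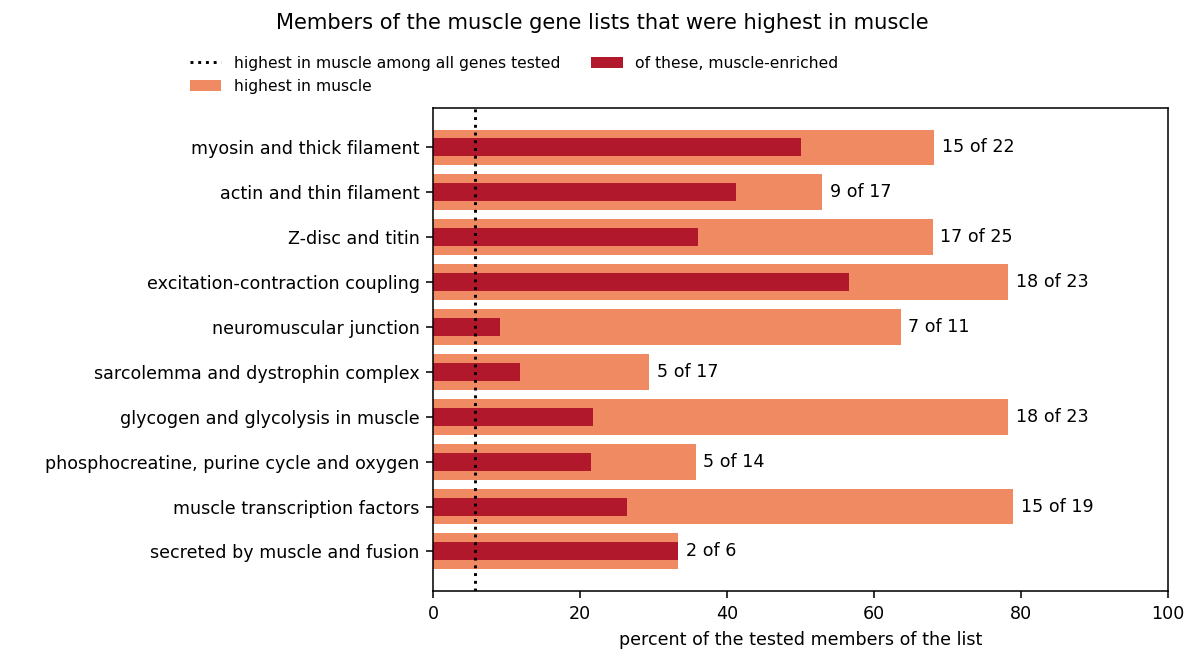
Share of the tested members of each of 10 muscle gene lists that were highest in muscle (orange bars, with counts) and that were muscle-enriched (dark red bars), on an axis from 0 to 100%. The dotted line marks the 5.7% of all genes tested that were highest in muscle, and every list lies to the right of it.

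In the thick filament, 15 of 22 members were highest in muscle and 11 were enriched, against 5.7% and 0.551% of all genes. Mylpf and Myl1, the fast regulatory and essential light chains, stood at 5939 and 4893 CPM and 7797 and 6750.4 CPM, with log2 differences of 7.42 ± 0.44 (SE, adjusted p = 3.62e-07) and 6.94 ± 0.52 (SE, adjusted p = 1.72e-06) to brown adipose, the closest tissue for both. Among the adult myosin heavy chains, compared per length in TPM (counts per length of the gene, scaled to a sum of 1000000 per library), Myh4 of IIb fibres made up 92.7% and 94.3% of the sum of Myh4, Myh1, Myh2 and Myh7 in muscle. Myh1 of IIx fibres made up 4.26% and 4%, Myh2 of IIa fibres 2.96% and 1.64%, and Myh7, the slow and cardiac β-myosin, 0.0984% and 0.0328%. In brown adipose the share of Myh4 was 80.4% and 88.9%, in liver 94.6% and 94.3%, in white adipose 91.5% and 94.1% and in heart 24.9% and 13.2%. A high share was thus not particular to muscle. The level was, with 43445 and 46448 TPM in muscle against at most 625 TPM, in fed brown adipose. The perinatal heavy chain Myh8 was enriched as well, at 46.1 and 49.7 CPM against at most 1.52 CPM in the fasting lung library. Myom1 and Myom2, which cross-link myosin at the M-band, and Smyd1, a methyltransferase of sarcomere assembly, did not pass the test against heart, with log2 differences of 0.55 ± 0.30 (SE, adjusted p = 0.19), 0.03 ± 0.35 (SE, adjusted p = 1) and 0.60 ± 0.32 (SE, adjusted p = 0.184).

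In the thin filament, 9 of 17 members were highest, against 5.7% of all genes. Tnnt3 and Tnnc2, fast troponin T and C, stood at 13933 and 13679 CPM and 6261 and 5235 CPM, and no other library held more than 219 and 101 CPM. The fast forms made up nearly the whole of each pair in muscle per length: 99.92% and 99.98% for Tnni2 against Tnni1, 99.86% and 99.95% for Tnnt3 against Tnnt1 and 99.82% and 99.91% for Tnnc2 against Tnnc1. In heart these shares were 98.8% and 100%, 71.2% and 82.7%, and 0.801% and 1.14%, and Tnni2 was at 100% and 100% in liver. Tnni2 stood at 16012 and 15491 TPM in muscle but at 20.3 and 34.6 TPM in heart. The heart muscle markers Tnni3 and Tnnt2 were not part of these pairs. Actc1, cardiac α-actin, stood at 224 and 210.4 CPM in muscle and at 10124 and 5489 CPM in heart, a log2 difference of -4.38 ± 0.32 (SE, adjusted p = 3.25e-06). Lmod2, a leiomodin that elongates thin filaments, was also lower than in heart, with a log2 difference of -2.16 ± 0.39 (SE, adjusted p = 0.00167). Tmod1 and Lmod3 did not pass the test against heart, with 0.15 ± 0.45 (SE, adjusted p = 0.863) and 0.60 ± 0.45 (SE, adjusted p = 0.357). Tpm3, slow tropomyosin, was not highest, at 43.9 and 22.9 CPM in muscle and 48.8, 95.6 and 319 CPM as lowest, median and highest elsewhere.

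In the Z-disc, 17 of 25 members were highest, against 5.7% of all genes. Actn3 stood at 6415 and 6689.7 CPM in muscle and at most at 77.9 CPM in the fed brown adipose library, a log2 difference of 7.76 ± 0.45 (SE, adjusted p = 3.16e-07) to brown adipose. Tcap, the titin cap, and Ttn itself were highest in muscle by smaller steps over heart, 1.62 ± 0.33 (SE, adjusted p = 0.00305) and 2.02 ± 0.42 (SE, adjusted p = 0.00356). Of the members at 10 CPM or more that were not highest, Actn2, Myoz2, Csrp3 and Cryab were lower than in heart. Csrp3, muscle LIM protein, had 36.1 and 31.9 CPM in muscle and 1164 and 1161 CPM in heart (-4.37 ± 0.35 SE, adjusted p = 6.00e-06). Myoz2, the slow and cardiac calsarcin, had 74.9 and 39.4 CPM and 962 and 1188 CPM (-3.60 ± 0.49 SE, adjusted p = 3.68e-04). Synpo2l, Pdlim5 and Xirp1 did not differ from heart past the threshold, with log2 differences of 0.48 ± 0.36 (SE, adjusted p = 0.357), 0.02 ± 0.22 (SE, adjusted p = 1) and -0.92 ± 0.34 (SE, adjusted p = 0.0614).

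For calcium release and uptake, 18 of 23 members were highest and 13 were enriched, against the same shares of all genes. Pvalb, the calcium buffer parvalbumin of fast fibres, had 7057 and 5883 CPM in muscle and no more than 112 CPM in the fed brown adipose library (7.34 ± 0.43 SE to brown adipose, adjusted p = 3.67e-07). Casq1, the calcium store protein of fast fibres, had 2694 and 1593 CPM against at most 45.3 CPM in the fed brown adipose library. Cacng1, the γ subunit of the T-tubule calcium channel, had 178 and 199 CPM against at most 2.23 CPM in the fed brown adipose library. In the fast and cardiac pairs, Atp2a1 made up 99.54% and 99.75% of the TPM of Atp2a1 and Atp2a2 in muscle and 0.349% and 0.747% in heart. Casq1 made up 99.4% and 99.59% against 2.82% and 2.72% of both calsequestrins, and Ryr1 99.95% and 99.97% against 0.302% and 0.668% of Ryr1 and Ryr2. Atp2a2, the cardiac and slow pump, stood at 129.7 and 77.4 CPM in muscle and 15798 and 12176 CPM in heart, a log2 difference of -6.36 ± 0.33 (SE, adjusted p = 2.99e-07). Hrc, the histidine-rich calcium binder, did not pass the test against heart, with -0.06 ± 0.27 (SE, adjusted p = 0.939).

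**Figure D4:**
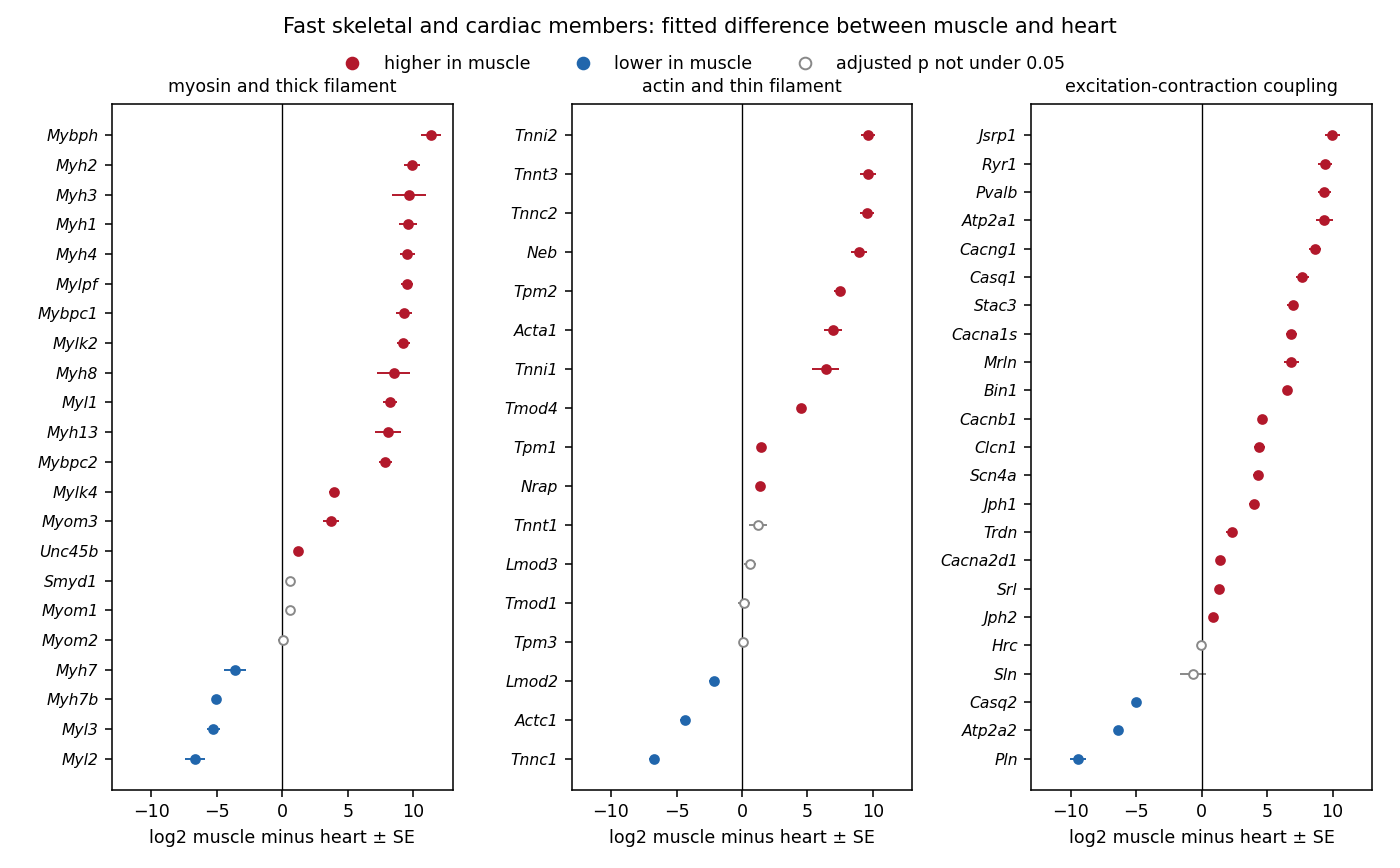
Fitted log2 difference between muscle and heart, with its SE, for the tested members of the thick filament, thin filament and calcium lists. Red points were higher and blue points lower in muscle at an adjusted p under 0.05, and open grey points passed in neither direction. Fast skeletal members such as Mybph, Tnni2 and Ryr1 lie at the high end of each panel, and the slow and cardiac members Myh7, Myl2, Myl3, Actc1, Tnnc1, Atp2a2, Casq2 and Pln lie well below 0.

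At the neuromuscular junction, 7 of 11 tested members were highest in muscle, against 5.7% of all genes. Musk, the receptor kinase that clusters acetylcholine receptors, had 55.7 and 85.9 CPM against at most 3.94 CPM in the fasting white adipose library and was the 1 enriched member. Chrnb1, the β subunit of the receptor, and Rapsn, its anchor, were highest by less, 1.77 ± 0.20 (SE, adjusted p = 1.52e-05) to lung and 1.16 ± 0.36 (SE, adjusted p = 0.0292) to heart, and both lost this call when libraries were scaled by their totals. Lrp4, the agrin receptor, and Etv5, a transcription factor of synaptic nuclei, were lower than in lung, with log2 differences of -2.53 ± 0.57 (SE, adjusted p = 0.00253) and -2.56 ± 0.33 (SE, adjusted p = 5.47e-05). In the dystrophin complex, Dmd, dystrophin, had 582 and 662 CPM in muscle and 683 and 895 CPM in heart, a log2 difference of 0.39 ± 0.16 (SE, adjusted p = 0.0827). This fitted value is above 0 although the CPM are lower in muscle, since TMM scaling lifts muscle, and with library totals the median log2 difference to heart over all genes moved from -0.02 to -0.70. Dag1, Sgcb, Sgcd, Trim72, Dysf, Cav3 and Lama2 did not pass the test against heart either, with log2 differences from -0.66 (Trim72) to 0.48 (Dysf). Sspn and Itga7, sarcospan and the laminin-binding integrin α7, were lower than in heart, with log2 differences of -0.87 ± 0.21 (SE, adjusted p = 0.00957) and -0.88 ± 0.28 (SE, adjusted p = 0.0308). Sgca, α-sarcoglycan, and Cmya5, a desmin-associated protein, were higher, by 0.89 ± 0.29 (SE, adjusted p = 0.0403) and 2.12 ± 0.33 (SE, adjusted p = 5.55e-04), and the call of Sgca was lost with library totals. Sntb1, β1-syntrophin, had 14.9 and 12.8 CPM in muscle and was lower than in liver, with -3.10 ± 0.35 (SE, adjusted p = 1.96e-05).

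Glycogen use and glycolysis had 18 of 23 members highest in muscle and a median smallest log2 difference of 2.06, against 5.7% and -1.69 for all genes tested. Pygm, muscle glycogen phosphorylase, had 7426 and 8237 CPM and at most 1328 CPM in the fed heart library elsewhere, a log2 difference of 3.30 ± 0.30 (SE, adjusted p = 1.71e-05) to heart. Aldoa had 12150.5 and 12405 CPM, Eno3, the muscle enolase, 4333 and 3743 CPM, and their log2 differences to heart, the closest tissue, were 3.13 ± 0.35 (SE, adjusted p = 6.84e-05) and 2.67 ± 0.30 (SE, adjusted p = 6.86e-05). Of the members not highest, Hk2, Fbp2 and Slc2a4, the hexokinase, fructose bisphosphatase and insulin-responsive glucose transporter of muscle, did not pass against the closest tissue, with 0.24 ± 0.36 (SE, adjusted p = 0.663) to brown adipose, 0.98 ± 0.56 (SE, adjusted p = 0.225) to heart and 1.05 ± 0.37 (SE, adjusted p = 0.0544) to heart. Gpd1, the glycerol phosphate dehydrogenase, was lower than in brown adipose, with -2.01 ± 0.48 (SE, adjusted p = 0.00583).

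The muscle form made up over 90% of the summed TPM in both muscle libraries for 14 of 16 enzymes and carriers. Per length, Pygm made up 99.87% and 99.89% of all glycogen phosphorylases in muscle, against 65.3% and 56% in heart and 3.62% in the lowest other library. Ampd1, the muscle AMP deaminase, made up 99% and 98.5% of its family in muscle and 0.114% to 16.4% in the other 14 libraries. Pgam2 (99.85% and 99.84%), Eno3 (99.69% and 99.74%), Pfkm (99.75% and 99.85%), Ckm (99.96% and 99.98%) and Cox6a2 (97.3% and 97.2%) were also the main forms in heart, where their shares were 97.9% and 97.6%, 97.7% and 97.9%, 92.7% and 93.3%, 98.3% and 98.7% and 94.8% and 95.4%. Aldoa (99% and 98.6%), Gys1 (99.92% and 99.5%), Fbp2 (96.4% and 97%) and Slc25a4 (92.8% and 94.9%) were over 90% in heart too. For some enzymes a high share was not particular to the striated muscles, since Aldoa was at 99.53% and 99.4% in brown adipose and Gys1 at 99% and 99.52% in lung. Lactate dehydrogenase differed between the striated muscles, with Ldha at 90.7% and 93.5% of Ldha and Ldhb in muscle and at 17.2% and 15% in heart, but liver had 98.9% and 99.70%. The exceptions were Cox7a1, at 72.2% and 73.3% of its family in muscle, and Cpt1b, a carnitine palmitoyltransferase, at 39.4% and 27.8% of Cpt1b and Cpt1a, from 3.32 and 3.39 CPM. The share of Cpt1b was 17.1% and 16.9% in heart and 60.1% and 46.2% in brown adipose. Why its counts in muscle were low was not tested. Of 27 isozymes listed for other tissues, 4 were lowest in muscle, against 2.51% of all genes, namely Pgam1, Pfkl, Cox6a1 and Cox8a. Pgam1 had 4.19 and 2.75 CPM in muscle and 17.6, 42.2 and 174 CPM as lowest, median and highest elsewhere (-1.29 ± 0.22 SE to spleen, the closest tissue, adjusted p = 3.33e-04).

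**Figure D5:**
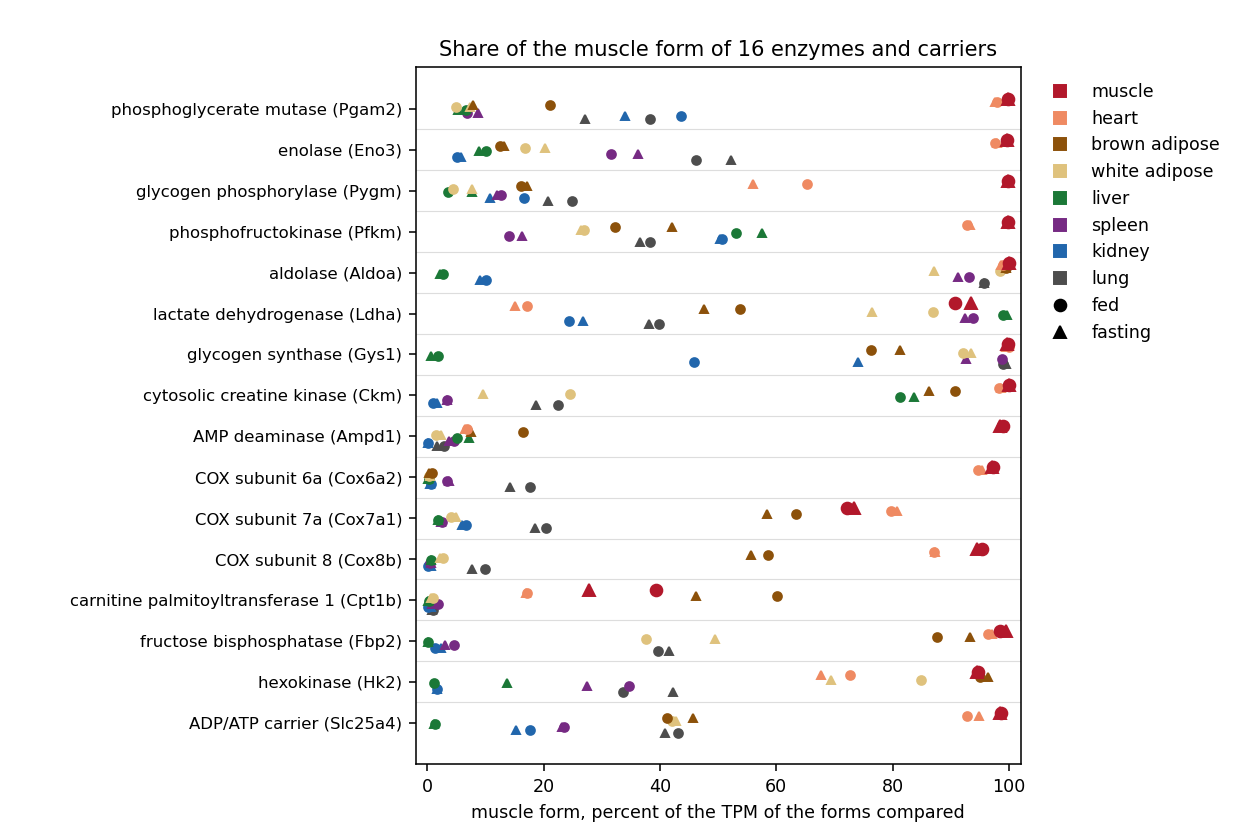
Share of the muscle form in the summed TPM of the forms compared, for 16 enzymes and carriers in the 16 libraries, in percent, with colours for tissues, circles for fed and triangles for fasting animals. Muscle lies above 90% for 14 of the 16, and heart lies far to the left of it for glycogen phosphorylase, lactate dehydrogenase and AMP deaminase.

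In the phosphocreatine, purine and oxygen list, 5 of 14 members were highest, against 5.7% of all genes. Ckm was 3.96 ± 0.33 (SE, adjusted p = 9.35e-06) above heart. Mb, myoglobin, had 1213 and 796 CPM in muscle and 9953 and 9093 CPM in heart (-2.56 ± 0.41 SE, adjusted p = 7.47e-04). Fabp3, the fatty acid carrier of muscle and heart, and Cox7a1, a muscle subunit of cytochrome oxidase, were lower than in heart, with log2 differences of -3.08 ± 0.29 (SE, adjusted p = 2.21e-05) and -1.67 ± 0.15 (SE, adjusted p = 1.70e-05). Ckmt2, Cox6a2, Cox8b and Slc25a4, all of the mitochondrion, did not pass against the closest tissue, with log2 differences of -0.74, -0.81, -0.57 and -0.28. Car3, carbonic anhydrase 3, was abundant in muscle at 1889 and 1265 CPM but reached 15526 CPM in the fed white adipose library.

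Of the transcription factors, 15 of 19 tested members were highest in muscle, against 5.7% of all genes. Most of the 15 were at low counts. Myf6, a myogenic factor kept in adult fibres, had 64.6 and 130.2 CPM and at most 1.26 CPM in the fed brown adipose library (7.50 ± 0.42 SE to brown adipose, adjusted p = 1.40e-06). Tbx15, a T-box factor of fast fibres, had 216 and 218 CPM against at most 11.3 CPM in the fed brown adipose library. Mef2c was highest by 1.80 ± 0.18 (SE, adjusted p = 5.82e-06) over spleen, a call lost with library totals, whereas Mef2a did not pass against heart (-0.02 ± 0.17 SE, adjusted p = 1). Myod1, the founding myogenic factor, had 14.4 and 2.81 CPM in muscle and at most 0.0655 CPM elsewhere. With DESeq2's Wald test 10 of the 19 factors were called highest. Among secreted factors, Mstn and Ostn, osteocrin, were highest, the latter with 15.2 and 11.2 CPM and no more than 2 counts in any other library. Fndc5, the precursor of irisin, was instead lower in muscle, at 69.3 and 38.7 CPM against 494 and 316 CPM in heart (-2.20 ± 0.28 SE, adjusted p = 1.36e-04).

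Genes low in muscle were taken in 2 classes. Of the 593 genes lowest in muscle, 299 had at least 10 CPM in each of the other 14 libraries, and the lowest other library exceeded muscle at least 2-fold for 245 of these and at least 4-fold for 27. These folds are of CPM on library totals, which place muscle below the other tissues for most genes, and the fitted differences after TMM scaling are smaller. Dock5, an activator of Rac, had 3.36 and 2.55 CPM in muscle and 22.4, 59.4 and 106 CPM as lowest, median and highest elsewhere (-2.37 ± 0.24 SE to white adipose, the closest tissue, adjusted p = 9.66e-06). Nectin2, a cell adhesion molecule, had 2.37 and 1.62 CPM in muscle and 19.8, 33.2 and 83.1 CPM elsewhere. Slc25a5, the ADP/ATP carrier of most tissues, had 26.8 and 24.2 CPM and 150, 233 and 983 CPM (-1.15 ± 0.22 SE to lung, adjusted p = 9.84e-04), whereas its muscle and heart counterpart Slc25a4 had 2699 and 2208 CPM in muscle. The potassium chloride cotransporter Slc12a7 had 8.43 and 8.18 CPM, the aldehyde dehydrogenase Aldh9a1 4.49 and 5.59 CPM and the pyruvate and lactate carrier Slc16a7 2.7 and 1.55 CPM, where the lowest other libraries had 67.5, 29.8 and 12.1 CPM. Vav2, a guanine nucleotide exchange factor, and Cdk6, a kinase of the cell cycle, had 4.69 and 3.98 CPM and 4.78 and 3.46 CPM, and the lowest other libraries 22.4 and 26.8 CPM. Zfp810 and Cobll1 completed these 10, with 1.91 and 1.55 CPM and 8.6 and 6.76 CPM.

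A second class held genes missing from muscle, under 0.2 CPM in both muscle libraries and at 1 CPM or more in both libraries of at least 4 other tissues. These were 218 of 37084 genes with a count (0.588%), 168 of them protein coding, 24 with 0 counts in both muscle libraries and 3 present in all 7 other tissues. The size of this class depends on its bounds, with 84 genes on TMM-scaled CPM, 101 under 0.1 CPM, 792 under 0.5 CPM and 401 when fed muscle was left out. Some of them were very high in 1 tissue and low in the others. Kap, an androgen-regulated protein of the kidney, had 0.0415 and 0.0323 CPM in muscle, 17943 and 16229.9 CPM in kidney, and 22.4 and 18.9 CPM in lung. Scgb1a1, the secretoglobin of airway club cells, had 0.0831 and 0.097 CPM in muscle, 13119 and 13985 CPM in lung, and 24.3 and 36.8 CPM in heart. Sftpc, surfactant protein C, had 0 counts in both muscle libraries, which allows up to 0.125 and 0.097 CPM (3 counts, counting error only), against 9.24 and 12.3 CPM in heart. For these 3 genes muscle lay below low levels that several other tissues held, and the source of those levels was not tested. When a tissue was counted only where its libraries also reached 1% of the highest library of the gene, a setting chosen after seeing the data, 176 genes were left, all among the 218, and none was present in all 7 tissues. Among them were Tjp3, a tight junction protein, Esrp2, an epithelial splicing regulator, Myrf, a membrane-bound transcription factor, Lrat, which esterifies retinol, and Cdcp1, a transmembrane protein of epithelia. Tjp3 had 0.0415 and 0.129 CPM in muscle and a median of 14 CPM elsewhere, and Esrp2 0.0415 and 0.194 CPM and a median of 8.02 CPM. Cela1, a pancreatic elastase, had 0.0415 and 0 CPM in muscle and up to 86 CPM in the fed spleen library.

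Markers of other cell types were summed in each library beside these classes. The 12 epithelial markers summed to 3.45 and 3.14 CPM in muscle and to 4.76 to 979 CPM in the other libraries, the 8 kidney tubule markers to 1.25 and 1.16 CPM against 2.64 to 39700.2 CPM, and the 7 lung epithelial markers to 0.623 and 0.582 CPM against 2.39 to 27633 CPM. Umod, Slc34a1 and Slc12a1 of the kidney and Sftpc, Sftpb and Sftpa1 of the lung were at 0 counts in both muscle libraries, and for the kidney and lung lists muscle was below the lowest other library. By the test, however, 0 of the 8 kidney and 0 of the 7 lung markers were lowest in muscle. Lower than in heart were 7 of the 8 and 7 of the 7, against 16.4% of all genes. Of the 12 epithelial markers 0 were lowest in muscle and 0 lower than in heart by the test, against 2.51% and 16.4% of all genes. The sum of the epithelial markers was below that of fed heart on library totals but not after TMM scaling. Of the 15 heart muscle markers none was highest in muscle and 14 were lower than in heart, against 5.7% and 16.4% of all genes. Myh6, the cardiac α-myosin, had 23.6 and 14.7 CPM in muscle against 30766 and 31096 CPM in heart, and Myl7 had 0 counts. Hepatocyte markers summed to 135 and 102 CPM and adipocyte markers to 2104 and 1452 CPM, led by Alb with 60.3 and 44.2 CPM and by Car3. Most of the adipocyte sum came from Car3, which is also on the phosphocreatine, purine and oxygen list of muscle. The part of hepatocyte and adipocyte RNA in the results was not tested.

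Markers of cells between the fibres stood at varied levels. Tendon and cartilage markers had a sum of 252 and 207 CPM in muscle against 2.8 to 93.2 CPM elsewhere, and 4 of 7 of them were highest, against 5.7% of all genes. Thbs4, a thrombospondin of tendon and muscle attachment, had 94.2 and 86.2 CPM against at most 4.07 CPM in the fed heart library (5.28 ± 0.40 SE to heart, adjusted p = 4.01e-06), and Fmod, fibromodulin of collagen fibrils, 123 and 98.3 CPM against at most 83.3 CPM in the fasting white adipose library, a call lost with library totals. Of muscle stem cell markers 5 of 8 were highest, against 5.7% of all genes. Their sum was nonetheless not highest in muscle, at 111 and 86.7 CPM against 548 and 1042 CPM in spleen and 251 and 199 CPM in white adipose. Cdh15, M-cadherin, had 17.9 and 17.5 CPM and at most 0.361 CPM in the fed brown adipose library, and Pax7, the factor that marks satellite cells, 3.57 and 2.1 CPM and at most 1.15 CPM. The sums in spleen and white adipose thus came almost wholly from other members of the list, which also held Cd34 and Vcam1. The 8 fibroblast markers summed to 2067 and 1495 CPM in muscle against 6712 and 5929 CPM in white adipose. None of them was highest, where 5.7% of all genes were, and the median of their smallest log2 difference was -0.999, against -1.69 over all genes tested. Fitted differences lie above those of CPM here, since the TMM factors were 1.29 and 1.4 in white adipose. The 2 members with the highest mean CPM in muscle did not pass the test against white adipose, with -0.11 ± 0.13 (SE, adjusted p = 0.52) for Dcn, decorin, and -0.12 ± 0.17 (SE, adjusted p = 0.571) for Col1a2, type I collagen. Cdh5, the endothelial VE-cadherin, was lower than in lung, with a log2 difference of -2.17 ± 0.17 (SE, adjusted p = 1.09e-06), and 2 genes of blood cells were lower than in spleen. Their log2 differences were -3.42 ± 0.18 (SE, adjusted p = 3.67e-08) for Csf1r, the macrophage receptor, and -10.50 ± 0.43 (SE, adjusted p = 1.05e-08) for Cd79b, of the B cell receptor. Of the B and T cell markers 4 of 10 were lowest in muscle, against 2.51% of all genes. In the contrast with heart 5 of them were lower and 1 was higher in muscle, against 16.4% and 15.1% of all genes. The sum of the 10 markers was not lowest in muscle, at 48.7 and 38 CPM against 30.7 and 20.6 CPM in heart and 20.5 and 13.2 CPM in brown adipose. Only 1 of the 10 reached 1 CPM in both muscle libraries, so this sum does not stand for the list as a whole. Actb, β-actin, stood at 369 and 201 CPM in muscle and 439, 1266 and 6236 CPM elsewhere, yet was not lowest in the fit, since its log2 difference to heart was -0.33 ± 0.18 (SE, adjusted p = 0.207).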

How the data were processed

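RNA of 8 tissues, pooled from 3 mice per group, was measured as 16 short-read libraries. Per the labels and the paper's methods, the reads were paired-end. The submitters' processing notes name fastp 0.23.2, FastQC 0.11.8, HISAT2 2.2.1.0, featureCounts of Subread 2.0 and GRCm38. The authors deposited raw whole-number counts, with gene lengths (an other value) beside them. Whether read pairs were counted, and the strand setting, are not given in the sources used here. Of 55385 gene identifiers, 55144 matched a GENCODE symbol when versions were ignored. For symbols held by 2 identifiers, such as Aldoa, the one with more counts was used. All 37 mitochondrial genes had 0 counts.

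CPM used library totals and TPM the deposited lengths. The main test was edgeR 4.0.16 (R 4.3.3; TMM, filterByExpr, terms for tissue and treatment, quasi-likelihood test), with 7 residual degrees of freedom and Benjamini-Hochberg adjustment over all 23580 genes in each contrast. The common coefficient of variation was 0.219. On simulated counts for 23580 genes with 200 genes set 4-fold above or 4-fold below every other tissue in muscle, 185 of 200 were recovered as highest with 1 false call, and 181 of 200 as lowest with 0. In all other genes muscle was given the level of heart, so false calls could hardly arise and their number says little. The effect of scaling on the calls was not simulated. Tables and plots were made with pandas 2.3.3, numpy 2.4.6 and matplotlib 3.10.9 under Python 3.11.15.

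The genes named are the 3 members of each muscle list with the highest TPM and those at 10 CPM or more that were not highest in muscle, the 10 enriched genes with the largest ratio and the 10 with the most CPM, the 10 leading genes of each low class, the 2 highest members of each other list, and Myh4 and Acta1. Genes at the edge of a class, neighbours in the genome, paired isoforms, markers at 0 counts, and Myh8, Myod1, Pax7, Pgam1, Pfkl, Cox6a1, Cox8a and Cpt1b were named after their values were seen. Values of some members picked by this rule are not reported here. All members, gene lists and pairs were chosen with earlier results of these data known. The alternatives were library totals, DESeq2 size factors, DESeq2 1.42.0, no filter, no treatment term, robust dispersion, an adjusted p under 0.01, other cuts of size, each library left out, and heart or brown adipose left out.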

Additional observations from a re-analysis of the deposited data

How the results depend on the processing

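Among the 52 named genes with a call, every log2 difference kept its direction under the other scalings, DESeq2, no filter, no treatment term, robust dispersion and each library left out. The call was lost by 6 with library totals alone (Chrnb1, Rapsn, Sgca, Mef2c, Des and Fmod), by 2 without the treatment term (Rapsn and Sgca), and by 0 to 6 when 1 library was left out (Cd79b, Rapsn, Sgca, Myrf, Des or Slc16a7). The class sizes moved more than the named genes. With library totals, 480 genes were highest, 3338 lowest and 1411 higher than in heart. At an adjusted p under 0.01, 269 were lowest and 2254 higher than in heart. Without heart, 1002 were lowest and 275 were muscle-enriched. Muscle-enriched genes numbered 203 at a ratio of at least 2, 84 at 10, 197 with a minimum of 1 CPM and 203 on TMM-scaled CPM. Missing genes numbered 101 under 0.1 CPM, 792 under 0.5 CPM, 3 over all 7 tissues, 13 at 5 CPM or more elsewhere and 84 on TMM-scaled CPM. Leaving out 1 library gave 994 to 1445 highest genes, 290 to 607 lowest genes (290 without fasting muscle), 2184 to 3843 genes higher than in heart (2184 without fed and 2317 without fasting heart) and 130 to 163 enriched genes. For missing genes, only the 2 muscle libraries were left out in turn, a setting chosen after seeing the data, which gave 401 without fed and 284 without fasting muscle. A tissue left with 1 library was assumed to vary like the others. Depth limits the missing class, since its bound of 0.2 CPM is near the 3 counts that 0 counts allow. The treatment term pairs libraries by their pool of animals. Without this pairing, 1217 genes were highest, 480 lowest and 3168 higher than in heart.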

Other observations

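Of the 130 muscle-enriched genes, 72 stood in none of the muscle lists. The genes below are examples picked after their values were seen, so their differences are a description of the class. The voltage-gated potassium channel genes Kcnc1, Kcnc4, Kcng4 and Kcna7 had 77 and 29.1 CPM, 38.2 and 28.7 CPM, 34.6 and 11.5 CPM and 65.8 and 35.1 CPM in muscle (fed and fasting), and none exceeded 5.57 CPM in another library. Scn4b, an auxiliary subunit of the sodium channel, had 498 and 364 CPM against at most 70.1 CPM in the fasting heart library. Slc8a3, a sodium and calcium exchanger, had 82.8 and 109.8 CPM against at most 2.52 CPM in the fasting lung library, and Atp2b3, a plasma membrane calcium pump, 15.8 and 14.4 CPM against at most 0.393 CPM in the fasting heart library. The closest tissue was 6.34 ± 0.35 (SE, adjusted p = 2.78e-07) below muscle on the log2 scale for Slc8a3.

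Other enriched genes outside the lists, picked in the same way, were of varied kinds. Camk2a and Camk2b, calmodulin-dependent kinases, had 283 and 203 CPM and 100.3 and 92.5 CPM, against at most 46.8 CPM in the fed heart library and 19.8 CPM in the fed brown adipose library. Prkag3 and Prkab2, subunits of AMP-activated kinase, had 204 and 66.8 CPM and 445 and 481 CPM, against at most 9.7 CPM in the fed white adipose library and 102 CPM in the fasting heart library. Nos1, neuronal nitric oxide synthase, which is anchored to the dystrophin complex in muscle, had 109.9 and 94.2 CPM against at most 12.1 CPM in the fasting spleen library. Amd1 and Smox, enzymes of polyamine synthesis and oxidation, had 1085 and 466 CPM and 364 and 286 CPM, against at most 69.4 CPM in the fed heart library and 23.4 CPM in the fasting spleen library. H19 had 247 and 139 CPM in muscle and at most 13 CPM in the fed brown adipose library.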
